A study of Mus musculus with 8 samples.

Results

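The unfolded protein response and the integrated stress response were followed here through 45 genes in DC2.4 cells exposed to allergen extracts. The 45 were picked by gene symbol as sensors, transcription factors, ATF4 target genes, tRNA synthetases and endoplasmic reticulum (ER) chaperones, and every one was among the 24054 rows of the deposited table and above the filter on low values. DC2.4 is an immortalized dendritic cell line of C57BL/6 origin, used here to stand in for dendritic cells that sample allergens. The cells spent 4 h in medium with 0.1% serum and then 4 h with 250 PNU/ml (protein nitrogen units) of house dust mite extract (HDM), timothy grass extract (Grass) or cat hair extract (Cat), or were left untreated. Each of these 4 groups had 2 libraries, which the submitters call independent. The labels name no vehicle for the untreated cells and do not say whether these spent the same further 4 h before harvest. A difference in that time could not be told apart from an effect of the extracts. A cell line shows the response of 1 line only.

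Both pathways protect cells when protein synthesis or folding is strained. In the unfolded protein response, the ER membrane sensors PERK, IRE1 and ATF6 react to misfolded protein: ATF6 and the IRE1-spliced factor XBP1 turn on chaperones, disulfide isomerases and genes of ER-associated degradation (ERAD). PERK, like the amino acid sensor GCN2, phosphorylates the translation factor eIF2, which favours translation of ATF4, and ATF4 turns on genes of amino acid supply, tRNA charging and, through CHOP, cell death. ATF4 is controlled largely at translation and XBP1 at splicing, so the amount of their transcripts is only 1 layer of either pathway. In dendritic cells the IRE1 and XBP1 branch is known for its role in survival and antigen presentation.

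The libraries held 31.94 to 43.32 M reads. Values are given in the deposited unit, close to reads per M library reads and not corrected for gene length, so levels are compared between groups and never between genes. Of 18 dendritic and myeloid markers, 12 passed the filter, and their summed level was 1690 to 1744 with HDM, 1668 to 1675 with Grass, 1648 to 1655 with Cat and 1772 to 1775 in untreated cells. Csf1r, Spi1, Itgam and Cd74 were present, while H2-Ab1 had 0 reads in every library and H2-Aa, Ciita, Flt3 and Ccr7 were below the filter. T cell, B cell, fibroblast and epithelial markers together summed to at most 3.27 per library, of which Lck was 3.18. A gene was called when limma, fitted to log2 of the value plus 0.1 over all 8 libraries, gave a Benjamini-Hochberg adjusted p under 0.05 among the 11455 tested rows. Every adjusted p below is limma's unless edgeR or DESeq2 is named with it. The p-values reflect no more than the variation among these 8 libraries, and the 3 comparisons with untreated cells share the same 2 controls. In bulk RNA, fewer expressing cells and less RNA per cell cannot be told apart.

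The promoter sequences of 7 members are shown first, because they carry the letters that ATF6, XBP1 and ATF4 are known to bind and allow the values to be read beside them. RefSeq (GRCm38.p6) gave a window of 250 bases before and 50 bases from the annotated start for 38 of the 45 members. The windows were searched on both strands for the ER stress element ERSE (CCAAT, 9 bases, CCACG), for ERSE-II (ATTGG, 1 base, CCACG), for the XBP1 core TGACGTGG and for the ATF4 core (TGATG, 1 base, AA). Capitals mark the matches in the 250 bases before the start, written 5′ to 3′ along the gene's strand.
Hspa5 (chr2:34771840-34772089, plus strand): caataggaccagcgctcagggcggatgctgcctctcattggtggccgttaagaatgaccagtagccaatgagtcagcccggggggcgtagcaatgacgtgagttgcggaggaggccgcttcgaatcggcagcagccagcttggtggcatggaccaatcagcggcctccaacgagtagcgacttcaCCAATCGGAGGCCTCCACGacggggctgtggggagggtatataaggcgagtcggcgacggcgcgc
Hsp90b1 (chr10:86705445-86705694, minus strand): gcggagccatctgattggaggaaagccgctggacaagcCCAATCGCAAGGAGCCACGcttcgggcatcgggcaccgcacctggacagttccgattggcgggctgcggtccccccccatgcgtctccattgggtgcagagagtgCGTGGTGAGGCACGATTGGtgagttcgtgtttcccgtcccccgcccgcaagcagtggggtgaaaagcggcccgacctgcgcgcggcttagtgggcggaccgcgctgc
Creld2 (chr15:88819396-88819645, plus strand): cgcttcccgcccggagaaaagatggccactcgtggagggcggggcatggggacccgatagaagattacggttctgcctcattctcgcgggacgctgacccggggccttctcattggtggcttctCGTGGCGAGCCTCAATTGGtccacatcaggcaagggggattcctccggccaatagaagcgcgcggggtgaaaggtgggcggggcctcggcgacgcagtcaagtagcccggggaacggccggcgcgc
Herpud1 (chr8:94386179-94386428, plus strand): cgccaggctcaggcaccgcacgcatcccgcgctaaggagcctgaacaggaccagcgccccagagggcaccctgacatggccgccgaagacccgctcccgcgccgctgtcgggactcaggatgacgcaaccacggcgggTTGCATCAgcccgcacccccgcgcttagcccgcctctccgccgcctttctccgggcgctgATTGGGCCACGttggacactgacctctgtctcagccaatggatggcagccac
Nupr1 (chr7:126625471-126625720, minus strand): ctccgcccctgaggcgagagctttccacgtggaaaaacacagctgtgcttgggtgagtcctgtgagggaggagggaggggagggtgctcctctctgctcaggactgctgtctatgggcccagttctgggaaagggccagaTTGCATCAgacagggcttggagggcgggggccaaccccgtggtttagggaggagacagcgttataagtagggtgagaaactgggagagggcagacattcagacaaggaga
Asns (chr6:7693210-7693459, minus strand): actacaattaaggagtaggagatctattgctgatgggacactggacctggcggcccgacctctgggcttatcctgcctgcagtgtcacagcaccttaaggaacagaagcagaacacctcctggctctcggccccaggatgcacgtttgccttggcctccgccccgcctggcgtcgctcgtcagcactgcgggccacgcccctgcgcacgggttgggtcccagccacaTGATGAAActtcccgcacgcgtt
Gars (chr6:55037751-55038000, plus strand): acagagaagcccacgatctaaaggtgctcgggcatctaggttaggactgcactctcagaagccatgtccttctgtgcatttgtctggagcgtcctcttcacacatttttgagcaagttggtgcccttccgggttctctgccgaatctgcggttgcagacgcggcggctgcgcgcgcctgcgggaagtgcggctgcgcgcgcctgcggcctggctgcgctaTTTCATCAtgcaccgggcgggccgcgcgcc

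An ERSE was present in 7 of the 15 ER genes with a window (Calr, Canx, Creld2, Dnajc3, Hsp90b1, Hspa5 and Pdia6), in 0 of the 19 genes on the ATF4 side, and in 0.137% of 27025 genes. Hsp90b1 held 2 of them, at -212 to -194 and -107 to -89 from the start, where -1 is the base before it. Hspa5 had its ERSE at -65 to -47. An ERSE-II was found in Dnajb11 and Herpud1, against 0.0444% of genes. The ATF4 core was found in 8 of the 19 genes on the ATF4 side (Aars, Asns, Chac1, Gars, Iars, Nupr1, Tars and Trib3), in 1 of the 15 ER genes (Herpud1) and in 4.51% of genes. Herpud1 was thus the 1 member whose window held both kinds of letters, the ATF4 core at -112 to -105 and the ERSE-II at -52 to -42. The XBP1 core TGACGTGG was in the windows of 0 of the 38 genes, and 0.714% of genes held it. No 2 matches shared a base in any member. A match describes letters in this window and is not evidence of binding.

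The extracts moved the members by small amounts and in a split pattern: a few transcription regulators and stress-inducible genes rose, while ER chaperones and folding enzymes fell. With HDM, 7 of the 45 rose and 16 fell, where 9.22% of all tested rows were called higher and 21.9% lower. Grass raised 4 and lowered 19, beside 10.4% and 25.4% of all rows, and Cat raised 4 and lowered 9, beside 4.34% and 13.6%. Among the 7441 rows with a mean value at or above that of the lowest member, Nupr1, 8.88% were called higher and 30.2% lower with HDM, 9.47% and 35.4% with Grass, and 4.82% and 18.9% with Cat. The 45 members had 15.6% higher and 35.6% lower with HDM, 8.89% and 42.2% with Grass, and 8.89% and 20% with Cat. The shares lower were thus above those of all rows and nearer to those of the rows at least as abundant. The shares higher were above both backgrounds with HDM and Cat, and below both with Grass. The genes that rose were Atf5, Ddit3, Ern1, Herpud1, Nupr1, Sesn2 and Trib3 with HDM, and Herpud1, Nupr1, Sesn2 and Trib3 with Grass and with Cat. The median log2 fold change of the 45 was -0.029, -0.070 and -0.022 with HDM, Grass and Cat, against -0.035, -0.038 and -0.025 over all tested rows. None of the 45 was listed in the authors' deposited tables of changed genes.

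**Figure D1:**
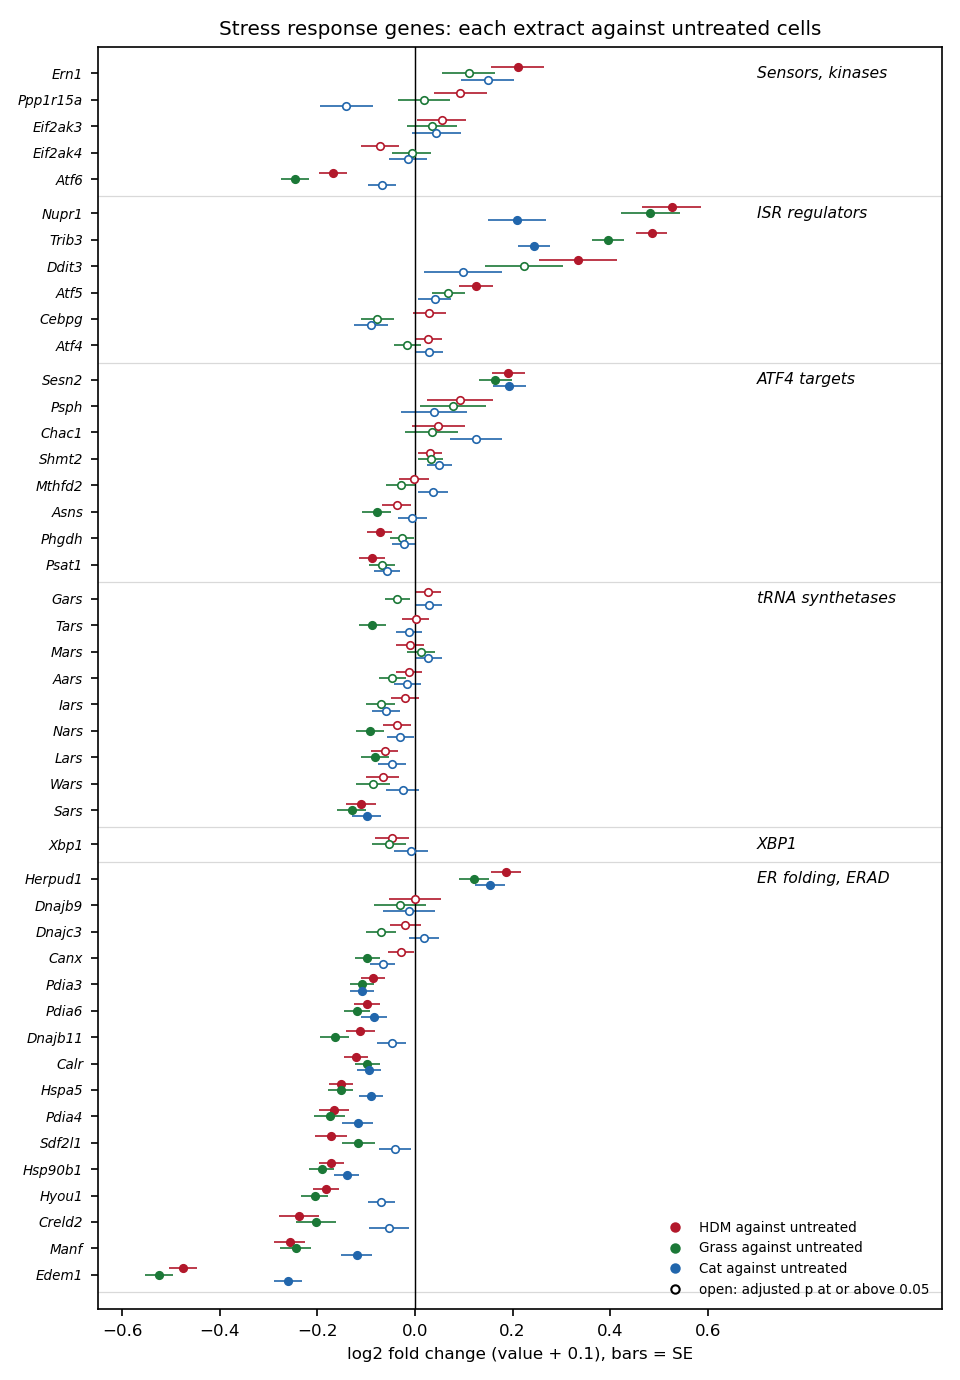
Log2 fold change of each of the 45 genes, in their 6 groups, with HDM, Grass and Cat against untreated cells. The horizontal axis is log2 of the fold on the value plus 0.1, bars are the SE from limma, and filled points were called. The upper groups reach 0.53 (Nupr1 with HDM), and the points of the ER folding and ERAD genes lie mostly left of 0, down to -0.53 (Edem1 with Grass).

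The counts of calls depended on how libraries were scaled, and the deposited column sums were lower with the extracts (975215 to 1001836) than in untreated cells (1032128 and 1047501). Over all tested rows, 29.6%, 29.1% and 24.1% of the calls with HDM, Grass and Cat were higher, against 47.0%, 46.6% and 41.1% with TMM factors and 65.2%, 64.8% and 55.7% with upper-quartile factors. Scaled with TMM factors, 8 members rose and 10 fell with HDM, 8 rose and 12 fell with Grass, and 6 rose and 5 fell with Cat. Of the 11455 tested rows, 1485 rose and 1677 fell with HDM under these factors, 1686 and 1930 with Grass, and 764 and 1094 with Cat. With upper-quartile factors 13 members rose and 9 fell with HDM, 9 and 9 with Grass, and 8 and 2 with Cat. Of all 11455 rows, 2169 rose and 1156 fell with HDM under these factors, 2459 and 1338 with Grass, and 1048 and 834 with Cat. Without the second HDM library the HDM count lower was 10, and without the first Cat library the Cat count lower was 4. In all 20 alternatives Herpud1, Nupr1, Sesn2 and Trib3 were called higher with HDM and with Grass. Atf6, Creld2, Edem1, Hsp90b1, Hspa5, Hyou1, Manf and Pdia4 were called lower with both in all 20, as were Sdf2l1 with HDM and Dnajb11 with Grass. With Cat, the calls of Sesn2 and Trib3 (higher) and of Edem1 (lower) held in all 20.

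The sensors divided between the 2 ER branches. Atf6, which encodes the membrane-bound factor that induces ER chaperones, read 260.1 and 258 with HDM, 247 and 243 with Grass and 275 and 279 with Cat, against 297 and 285 in untreated cells. In the deposited scaling all 6 libraries with an extract lay below both untreated ones. TMM factors (1.001 for the second Cat library, 0.979 for the second untreated one) would make Cat and untreated overlap. How many of all rows separate in this way was not counted, for this or other genes. The log2 fold change was -0.17 with HDM (SE 0.03, adjusted p = 6.5e-05), -0.25 with Grass (SE 0.03, adjusted p = 2.4e-07) and -0.07 with Cat (SE 0.03, adjusted p = 0.10), so Atf6 fell with HDM and Grass and was not called with Cat.

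Ern1, which encodes the kinase and nuclease IRE1 alpha, went the other way. It read 29.3 and 29.6 with HDM, 27.3 and 27.6 with Grass and 27.2 and 29.2 with Cat, against 26.5 and 24.4 in untreated cells. Again the 6 libraries with an extract did not overlap with the untreated ones, but here they were above them. Ern1 rose with HDM (0.21, SE 0.05, adjusted p = 0.0043), a call that ended without the second untreated library (0.15, adjusted p = 0.068). The values with Grass (0.11, adjusted p = 0.12) and Cat (0.15, adjusted p = 0.059) were not called, though both were called with TMM or upper-quartile factors.

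Eif2ak3, which encodes PERK, was at 39.2 and 35.2 with HDM, 36.5 and 36.8 with Grass and 37.7 and 36.0 with Cat, against 35.3 and 36.3 in untreated cells. The groups overlapped, and log2 fold changes of 0.054, 0.035 and 0.044 (SE 0.05 each) were not called. Its exons share 485 bases with a predicted gene on the other strand (GENCODE M21), and whether the counting used strand is not given in the sources used here. Eif2ak4, which encodes GCN2, was not called with any extract (-0.071, -0.0071 and -0.015 with HDM, Grass and Cat). Neither was Ppp1r15a, the GADD34 phosphatase subunit that ends eIF2 phosphorylation (0.093, 0.019 and -0.14). Among the 5 sensor and feedback genes, HDM raised 1, Grass 0 and Cat 0, beside 9.22%, 10.4% and 4.34% of all tested rows. HDM lowered 1 of the 5, Grass 1 and Cat 0, beside 21.9%, 25.4% and 13.6% of all tested rows. With Cat limma gave 3 an unadjusted p under 0.05, edgeR called 1 higher (Ern1) and DESeq2 called 0, and with Grass edgeR called Ern1 higher and DESeq2 did not.

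The regulators downstream of ATF4 held the largest rises among the members. Trib3, a pseudokinase induced by ATF4 and CHOP, read 233 and 234 with HDM, 221 and 218 with Grass and 199.5 and 195 with Cat, against 160.3 and 174 in untreated cells. Every library with an extract was above both untreated ones, and the 3 extracts did not overlap with each other, HDM being the highest. Trib3 rose with HDM (0.49, SE 0.03, adjusted p = 1.5e-11), Grass (0.40, SE 0.03, adjusted p = 6.3e-10) and Cat (0.24, SE 0.03, adjusted p = 9.3e-06). Nupr1, a small stress-induced chromatin protein, read 21.9 and 22.8 with HDM, 22.0 and 21.3 with Grass and 18.1 and 17.7 with Cat, against 15.1 and 15.9 in untreated cells. HDM and Grass overlapped, both lay above Cat, and Cat above untreated. It rose 1.44-fold with HDM (log2 0.53, SE 0.06, adjusted p = 2e-07), 1.40-fold with Grass (0.48, adjusted p = 6.8e-07) and 1.16-fold with Cat (0.21, adjusted p = 0.016). The Cat call of Nupr1 ended without the first Cat library (adjusted p = 0.10), without the second (0.067) and without the first untreated library (0.077).

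Ddit3, which encodes the pro-apoptotic factor CHOP, read 52.3 and 54.4 with HDM, 50.9 and 47.9 with Grass and 46.3 and 44.3 with Cat, against 38.4 and 46.6 in untreated cells. The untreated pair was far apart, and the second of them was above both Cat libraries and below all HDM and Grass ones. Ddit3 rose with HDM (0.33, SE 0.08, adjusted p = 0.013), a call that ended without the second HDM library (0.31, adjusted p = 0.086). With Grass it was 0.22 (adjusted p = 0.061), not called here but called higher with TMM, DESeq2 or upper-quartile factors, edgeR and DESeq2. With Cat it was 0.098 (adjusted p = 0.47). Its exons share 68 bases with the synthetase gene Mars on the other strand.

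Atf5, a factor translated in the manner of ATF4, read 139 and 138 with HDM, 131 and 135 with Grass and 127 and 134 with Cat, against 124 and 130.3 in untreated cells. Only the HDM pair stood clear of the other libraries. Atf5 rose with HDM (0.13, SE 0.03, adjusted p = 0.0065), but not without the first HDM library (0.12, adjusted p = 0.057) or the first untreated library (0.087, adjusted p = 0.066). With Grass it was 0.068 (adjusted p = 0.13), not called here but called higher with TMM, DESeq2 or upper-quartile factors and edgeR. The exons of Atf5 share 82 bases with those of Nup62 and Il4i1 on the other strand, so its small change is uncertain. Atf4 itself read 682 and 697 with HDM, 658 and 681 with Grass and 689.6 and 691 with Cat, against 658 and 695 in untreated cells. Each extract's pair of Atf4 values overlapped with the untreated pair, and the log2 fold changes were 0.027, -0.016 and 0.029 (SE 0.03 each, adjusted p = 0.50, 0.71 and 0.53). Cebpg, a dimer partner of ATF4, was at 0.029, -0.077 and -0.090 and was not called. Of the 6 regulators, HDM raised 4, Grass 2 and Cat 2, beside 9.22%, 10.4% and 4.34% of all tested rows. Each extract lowered 0 of them, beside 21.9%, 25.4% and 13.6% of all tested rows. Limma gave 0, 1 and 1 of them an unadjusted p under 0.05 for a lower value, and edgeR and DESeq2 called 0 lower. With edgeR 4 rose with Grass, as without the second untreated library. With Cat 1 rose without either Cat library or the first untreated one and 3 without the second untreated library, and 1 fell with Grass and with Cat without the first untreated library.

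**Figure D2:**
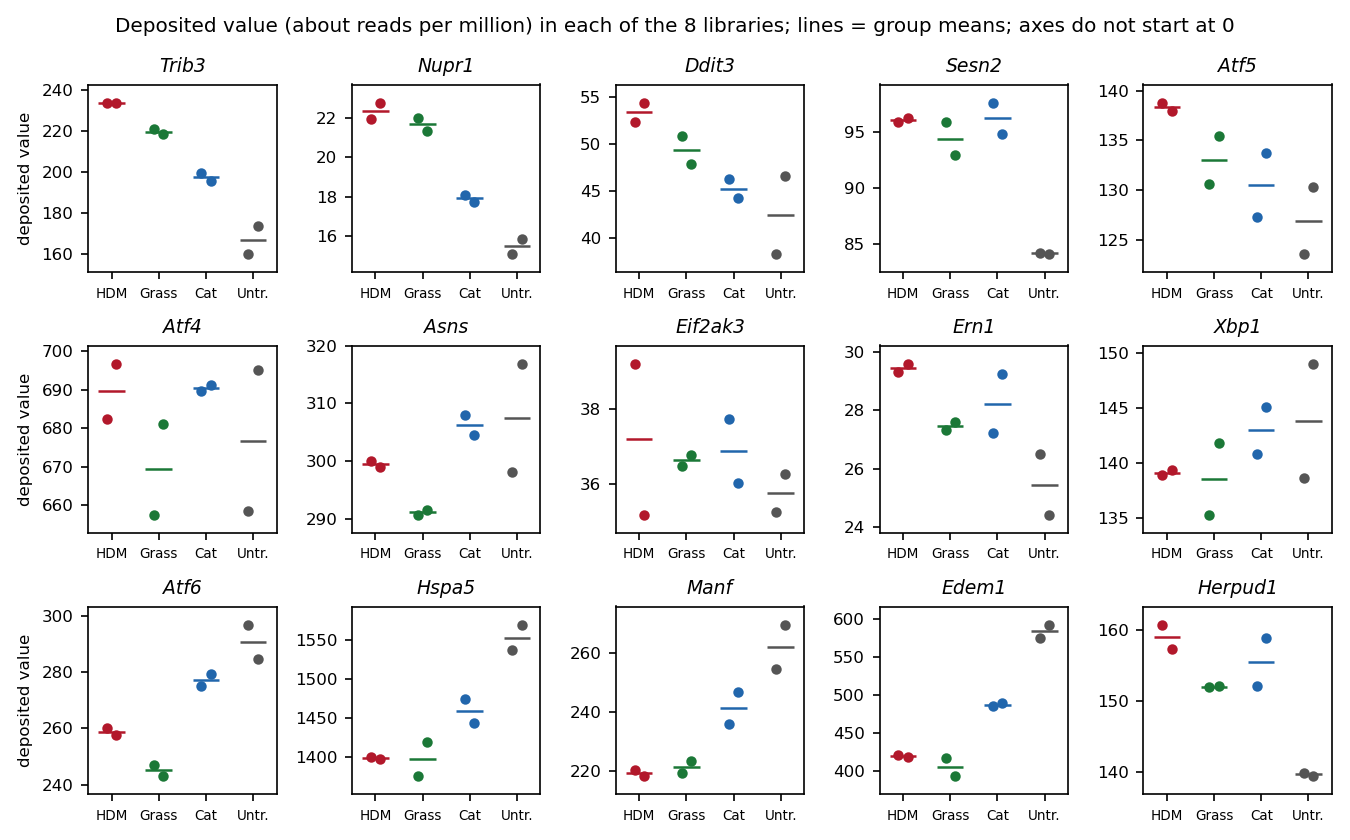
Deposited value (about reads per M, linear axes that do not start at 0) of 15 genes in each of the 8 libraries, by group, with a line at the group mean. Trib3 is at 233 and 234 with HDM and at 160.3 and 174 in untreated cells, whereas Edem1 is at 421 and 418 with HDM and at 574 and 592 in untreated cells.

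Most ATF4 target genes of amino acid and one-carbon metabolism were not called. Sesn2, a leucine-binding inhibitor of mTORC1, was the 1 of 8 that rose. It read 95.9 and 96.3 with HDM, 95.8 and 92.9 with Grass and 97.6 and 94.8 with Cat, against 84.2 and 84.1 in untreated cells. Cat overlapped with HDM and with Grass, HDM lay just above Grass, and all 3 extracts were above the untreated pair. Log2 fold changes were 0.19 with HDM, 0.16 with Grass and 0.19 with Cat (SE 0.03 each, adjusted p = 9.6e-05, 0.00041 and 0.00024). Asns, asparagine synthetase and a standard readout of ATF4, read 300.0 and 299 with HDM, 291 and 292 with Grass and 308 and 304 with Cat, against 298 and 317 in untreated cells. The HDM and Cat libraries lay between the untreated pair, and the Grass ones below it. Asns was called lower with Grass (-0.078, SE 0.03, adjusted p = 0.040) and not with HDM (-0.037, adjusted p = 0.37) or Cat (-0.0055, adjusted p = 0.93). The Grass call ended without any 1 library other than the first untreated one (adjusted p between 0.058 and 0.42), and with upper-quartile factors the value was 0.001.

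Psat1 and Phgdh, the serine synthesis enzymes, fell slightly with HDM (-0.087 and -0.073, adjusted p = 0.014 and 0.027). The third enzyme of that route, Psph, was at 0.092 and was not called. Its exons share 452 bases with a Cct6a transcript on the other strand. Shmt2 and Mthfd2, of mitochondrial one-carbon metabolism, were at 0.030 and -0.0018 with HDM, 0.032 and -0.029 with Grass and 0.049 and 0.036 with Cat, none of them called. Chac1, which degrades glutathione and is a sensitive target of the ATF4 and CHOP axis, was at 0.047, 0.035 and 0.12 and was not called. In all, 1 of the 8 targets rose with each extract, beside 9.22%, 10.4% and 4.34% of all tested rows with HDM, Grass and Cat. HDM lowered 2 of the targets, Grass 1 and Cat 0, beside 21.9%, 25.4% and 13.6% of all tested rows. With Cat, 1 target had a lower value with an unadjusted p under 0.05. EdgeR and DESeq2 called 0 lower with any extract, both added Shmt2 as higher with each, and edgeR added Chac1 with Cat. Without either HDM library or without the second untreated library, 0 fell with HDM.

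The 9 tRNA synthetases, several of them textbook ATF4 targets, were not called higher with any extract. Limma called 0 in the 3 comparisons with untreated cells (0 with an unadjusted p under 0.05 and a positive change), as did edgeR and DESeq2. Upper-quartile factors gave 2 higher with HDM, 1 with Grass and 1 with Cat, beside 2169, 2459 and 1048 of 11455 rows. Sars, which charges serine tRNA, fell with each extract (-0.11 with HDM, -0.13 with Grass, -0.099 with Cat, adjusted p = 0.0070, 0.0016 and 0.024). It read 773 and 752 with HDM, 752 and 754 with Grass and 760.3 and 777 with Cat, against 792 and 857 in untreated cells, and the untreated pair was the most spread. The Sars call ended without the second untreated library with HDM (adjusted p = 0.14) and Cat (0.33), without the second HDM library (0.12), and without either Cat library (0.20 and 0.078). Lars, Nars and Tars also fell with Grass (-0.082, -0.092 and -0.087, adjusted p = 0.026, 0.013 and 0.014). Aars, Gars, Iars, Mars and Wars were not called with any extract, with values between -0.086 (Wars with Grass) and 0.029 (Gars with Cat). Aars shares 1326 exon bases with Exosc6 on the same strand, so its value is uncertain. With HDM, Grass and Cat, 21.9%, 25.4% and 13.6% of all tested rows were lower. Of the rows at least as abundant as the lowest member, 30.2%, 35.4% and 18.9% were lower. Beside these shares, HDM lowered 1 of the 9 synthetases, Grass 4 and Cat 1. Without the first untreated library these counts were 4, 6 and 2, and without the second 0, 2 and 0. EdgeR and DESeq2 called 0, 1 and 0 lower. Without the second Grass library the Grass count was 1, as with TMM factors, and the Tars call also ended without the first (adjusted p = 0.054). The ATF4 core lay in 4 of the 5 synthetases with a window (Aars, Gars, Iars and Tars), and of these Tars was called, lower with Grass.

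On the ER side, Xbp1, the factor that IRE1 splices, read 139 and 139 with HDM, 135 and 142 with Grass and 141 and 145 with Cat, against 139 and 149 in untreated cells. Each extract's pair overlapped with or met the untreated pair, and the log2 fold changes of -0.048, -0.054 and -0.0080 were not called. Gene totals do not tell spliced from unspliced Xbp1. Of the 16 genes of ER folding and ERAD, 12 fell and 1 rose with HDM, 13 and 1 with Grass, and 8 and 1 with Cat. Of all tested rows 21.9%, 25.4% and 13.6% were lower, and 9.22%, 10.4% and 4.34% higher. Of the rows at least as abundant as the lowest member, 30.2%, 35.4% and 18.9% were lower, and 8.88%, 9.47% and 4.82% higher. Together with Xbp1 the 17 genes had a median log2 fold change of -0.12 with HDM, -0.12 with Grass and -0.069 with Cat. The Cat count lower was 4 without the first Cat library, 5 with TMM factors and 2 with upper-quartile factors. With TMM factors 9 of the 17 fell with HDM and 10 with Grass, and with upper-quartile factors 8 fell with each. Of the 11455 tested rows, 1677, 1930 and 1094 fell with HDM, Grass and Cat under TMM factors. Under upper-quartile factors 1156, 1338 and 834 of these rows fell.

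Edem1, an ERAD lectin that extracts misfolded glycoproteins and a known XBP1 target, had the largest fall. It read 421 and 418 with HDM, 417 and 394 with Grass and 485 and 489 with Cat, against 574 and 592 in untreated cells. HDM and Grass were close, Cat lay between them and untreated, and no library with an extract reached an untreated one. Edem1 fell with each extract, the change being -28.0% with HDM (log2 -0.47, SE 0.03, adjusted p = 2.7e-12), -30.5% with Grass (-0.53, SE 0.03, adjusted p = 4.2e-13) and -16.5% with Cat (-0.26, SE 0.03, adjusted p = 8e-07). Manf, a secreted ER stress protein that binds BiP, read 220.4 and 218 with HDM, 219.3 and 223.3 with Grass and 236 and 247 with Cat, against 255 and 269.8 in untreated cells. The order was the one seen in Edem1. It fell with HDM (-0.26, SE 0.03, adjusted p = 5.5e-07), Grass (-0.25, SE 0.03, adjusted p = 1e-06) and Cat (-0.12, SE 0.03, adjusted p = 0.0085), and the Cat call ended without the first Cat library (adjusted p = 0.17) or the second untreated library (0.11).

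Hspa5, which encodes BiP, the Hsp70 chaperone of the ER whose window with its ERSE is shown above, read 1400.0 and 1397 with HDM, 1376 and 1419 with Grass and 1475 and 1443 with Cat, against 1536 and 1569 in untreated cells. All libraries with an extract were below the untreated pair. Hspa5 fell with HDM (-0.15, SE 0.025, adjusted p = 4.1e-05), Grass (-0.15, SE 0.025, adjusted p = 3e-05) and Cat (-0.090, SE 0.025, adjusted p = 0.012), the Cat call ending in 7 of the 20 alternatives, among them TMM and upper-quartile factors, edgeR and leaving out the second Cat library (adjusted p = 0.17 for the last). Hsp90b1, the Hsp90 of the ER with 2 ERSE, changed alike, by -0.17, -0.19 and -0.14, and was called with each extract. Hyou1, the exchange factor of BiP, fell by 0.18 with HDM and 0.21 with Grass, and was -0.069 with Cat (adjusted p = 0.081). Creld2, an ER protein with disulfide isomerase activity, and Sdf2l1, a partner of the ER J proteins, fell with HDM (-0.24 and -0.17) and Grass (-0.20 and -0.12) and were not called with Cat (-0.053 and -0.040). The Grass call of Sdf2l1 ended without the first Grass library (adjusted p = 0.062) or the second untreated library (0.076), and with TMM or upper-quartile factors, edgeR and DESeq2.

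Among the disulfide isomerases, Pdia3, Pdia4 and Pdia6 fell with all 3 extracts, between -0.17 (Pdia4 with Grass) and -0.084 (Pdia6 with Cat). Calr, the soluble lectin chaperone calreticulin, fell with each (-0.12, -0.098 and -0.095). Canx, its membrane-bound relative calnexin, fell with Grass (-0.098, adjusted p = 0.0042) and was not called with HDM (-0.029) or Cat (-0.066). The Grass calls of Calr and Canx ended with TMM factors, with edgeR and with DESeq2, and without the first (Calr, adjusted p = 0.057) or second Grass library (Canx, 0.053). With HDM, the calls of Pdia3 ended without either HDM library and those of Pdia6 and Dnajb11 without the second (adjusted p between 0.054 and 0.095), and all 3 also ended with TMM or upper-quartile factors, edgeR and DESeq2. With Cat, those of Calr, Pdia4 and Pdia6 ended without the first Cat library (adjusted p = 0.16, 0.099 and 0.16), and that of Pdia6 also without the second Cat, either HDM or the first untreated library. Under TMM factors and edgeR the Cat calls of Calr and Pdia6 ended, and under edgeR and DESeq2 that of Pdia4. The J proteins differed: Dnajb11 fell with HDM (-0.11) and Grass (-0.16), whereas Dnajb9 (0.00092, -0.031 and -0.013 with HDM, Grass and Cat) and Dnajc3 (-0.020, -0.070 and 0.019) were not called. Of the 7 genes with an ERSE, Calr, Hsp90b1, Hspa5 and Pdia6 fell with each extract, Creld2 with HDM and Grass, Canx with Grass only and Dnajc3 with none. Among ER genes whose windows held none of the 4 motifs, Edem1, Pdia3 and Pdia4 fell with each extract and Sdf2l1 with HDM and Grass. Dnajb9 and Xbp1, also without a motif, were not called. A link between motif and change was not tested.

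Herpud1, a membrane component of the ERAD ubiquitin ligase complex, was the 1 ER gene that rose. It read 161 and 157 with HDM, 152 and 152 with Grass and 152 and 159 with Cat, against 139.9 and 139 in untreated cells. The untreated pair was lowest, HDM lay above Grass, and Cat overlapped with HDM. Herpud1 rose with HDM (0.19, SE 0.03, adjusted p = 3.9e-05), Grass (0.12, SE 0.03, adjusted p = 0.0029) and Cat (0.15, SE 0.03, adjusted p = 0.00090). Herpud1 is the member with both an ERSE-II and an ATF4 core before its start. Nupr1 and Trib3, which rose too, held an ATF4 core, as did Aars, Asns, Chac1, Gars, Iars and Tars, which were not called higher. Atf5, Ddit3 and Ern1, which rose with HDM, and Sesn2, which rose with each extract, held none of the 4 motifs.

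The ATF4 side was then set against the ER side. The 23 genes of the ATF4 side (6 regulators, 8 targets and 9 synthetases) included 5 that rose and 3 that fell with HDM, 3 and 5 with Grass, and 3 and 1 with Cat. Of all tested rows, 9.22% rose and 21.9% fell with HDM, 10.4% and 25.4% with Grass, and 4.34% and 13.6% with Cat. HDM gave the 23 genes a median log2 fold change of 0.0015, Grass -0.029 and Cat 0.027. With Grass their mean, 0.025, had the other sign, as did the median under TMM factors (0.013) and upper-quartile factors (0.051). The ER median minus the ATF4 median was -0.12 for HDM, -0.089 for Grass and -0.096 for Cat. A scaling shifts both sides alike, and under TMM, DESeq2 and upper-quartile factors the difference had the same values. It was -0.056 with Cat without the first Cat library and -0.053 without the first untreated one. EdgeR and DESeq2 both called 6 higher and 0 lower on the ATF4 side with HDM. Without the first untreated library limma's counts were 4 higher and 7 lower with HDM, 3 and 10 with Grass and 2 and 4 with Cat, and without the second 5 and 0, 5 and 2, and 5 and 0.

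Per library, the mean log2 level of the ER genes minus that of the ATF4 side, each centred on the 8 libraries, was -0.070 and -0.078 with HDM, -0.061 and -0.049 with Grass and -0.0024 and 0.036 with Cat, against 0.14 and 0.081 in untreated cells. The untreated pair was highest, Cat came next, then Grass, and HDM was lowest, with no overlap between groups. The ER mean alone was -0.036 and -0.048 with HDM, -0.064 and -0.055 with Grass and 0.0018 and 0.032 with Cat, against 0.080 and 0.088 in untreated cells. The regulators were ordered HDM, Grass, Cat and untreated from high to low, at 0.11 and 0.13 with HDM, 0.054 and 0.044 with Grass and -0.039 and -0.045 with Cat, against -0.19 and -0.071 in untreated cells. The untreated pair differed by 0.12 in the regulators, more than any treated pair did. In the deposited scaling the summed myeloid markers were also highest in untreated cells, as given above. Single markers differed: Ptprc was highest in untreated cells (330 and 324), but Csf1r and Emr1 in the first HDM library (523 and 171). The sums were not recalculated under other scalings, and the part of the markers in these differences was not tested.

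**Figure D3:**
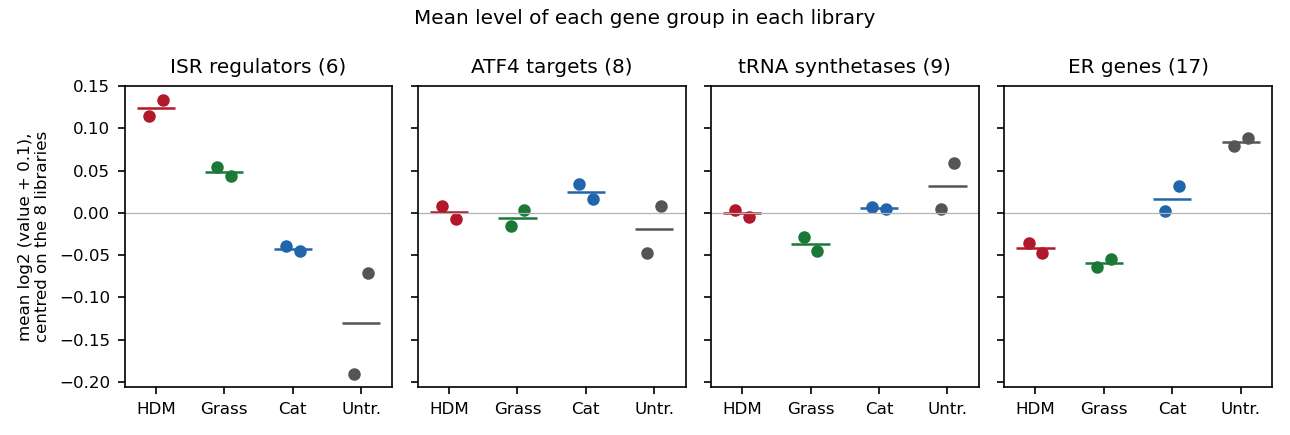
Mean log2 of the value plus 0.1 over the genes of a group, centred on the 8 libraries, for regulators (6 genes), ATF4 targets (8), tRNA synthetases (9) and ER genes (17). Points are libraries and lines are group means: ER genes lie at 0.080 and 0.088 in untreated cells and at most 0.032 in the libraries with an extract, and the regulators at 0.11 and 0.13 with HDM.

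**Figure D4:**
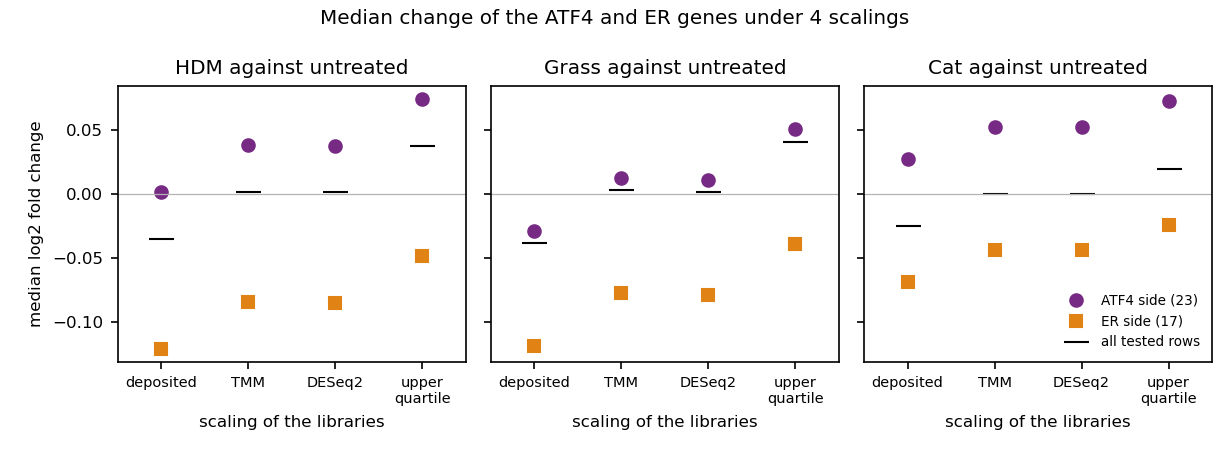
Median log2 fold change of the ATF4 side (23 genes), the ER side (17 genes) and all tested rows with each extract, under the deposited scaling and 3 others. Factors per library shift all 3 medians alike, so the other scalings keep the order of the deposited one by construction: the ER side lies below all tested rows and the ATF4 side above them with each extract.

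The extracts were compared directly to ask where the responses differed. Between HDM and Grass, 0 of the 45 members were called, where 1.69% of all tested rows were higher with HDM and 0.62% lower. By limma 7 members had an unadjusted p under 0.05, edgeR and DESeq2 called 0 as well, and 4 were called higher when either untreated library was left out. HDM against Cat gave 4 higher and 6 lower, beside 2.94% and 4.82% of all rows, and Grass against Cat 2 higher and 6 lower, beside 3.58% and 8.23%. Nupr1 was higher with HDM than with Cat (0.32, SE 0.06, adjusted p = 0.00083), and so were Trib3 (0.24, SE 0.03, adjusted p = 8.2e-06), Ppp1r15a (0.23, SE 0.05, adjusted p = 0.0054) and Cebpg (0.12, SE 0.03, adjusted p = 0.031). Edem1 was lower with HDM than with Cat (-0.22, SE 0.03, adjusted p = 8.2e-06), as were Creld2, Manf, Sdf2l1, Hyou1 and Atf6 (-0.18 to -0.099). Nupr1 and Trib3 were also higher with Grass than with Cat (0.27 and 0.15, adjusted p = 0.0029 and 0.0022). Edem1 (-0.27, adjusted p = 3.8e-07), Atf6 (-0.18, adjusted p = 0.00012), Creld2, Hyou1, Manf and Dnajb11 were lower with Grass than with Cat. None of the 8 members listed as ATF4 targets and none of the 9 synthetases was called between extracts by limma, edgeR or DESeq2. Of these, 3 synthetases and 2 targets had an unadjusted limma p under 0.05 for Grass against Cat, and 2 synthetases for HDM against Grass. Without either untreated library, 3 synthetases and 1 target were lower with Grass than with Cat.

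These calls between extracts were sensitive to single libraries. For HDM against Cat the count lower was 3 without the first HDM library and 1 without the second HDM or the second Cat library, and the count higher was 2 without the second HDM or the first Cat library. For Grass against Cat the count lower was 3 without either Grass library, 2 without the second Cat library and 12 without either untreated library. The count higher was 1 without the first Grass or the second Cat library and 4 without either untreated one. Atf6 and Cebpg (HDM against Cat) and Dnajb11 (Grass against Cat) lost their calls without any 1 of the 4 libraries compared. Trib3 and Hyou1 lost theirs for Grass against Cat without the second Cat library (adjusted p = 0.055 and 0.065), and Nupr1 without the first Grass library (0.053). Nupr1 with HDM against Cat and Edem1 with Grass against Cat were called in all 20 alternatives.

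Further genes of the same pathways, taken from lists by function and not by how they moved, were described beside the members. Their counts lower stand beside the 30.2%, 35.4% and 18.9% of rows at member level that were lower with HDM, Grass and Cat. Their counts higher stand beside the 8.88%, 9.47% and 4.82% of those rows that were higher. Of 15 other ER folding genes, 0 rose and 9 fell with HDM, 0 and 9 with Grass, and 0 and 5 with Cat, including the thioredoxin-like retention factor Erp44 (83.3 ± 1.4 with HDM, 78.5 ± 0.66 with Grass and 83.7 ± 3.1 with Cat, against 94.3 ± 0.28 in untreated cells, SD, n = 2 each). Of 16 tested ERAD and translocon genes, 0 rose and 9 fell with HDM, 0 and 12 with Grass, and 0 and 4 with Cat. Among them were Sec61a1, the pore of the translocon (-0.15, -0.17 and -0.10), and Derl1 (-0.18, -0.18 and -0.12). Of 7 tested genes of ATF6 processing and its relatives, 4, 5 and 1 fell and 0 rose, among them Atf6b and the site-2 protease Mbtps2 (each -0.16 or -0.17 with HDM and Grass). In those 3 lists 0 genes had a rise with an unadjusted p under 0.05, and edgeR and DESeq2 called 0 higher except for 1 ER folding gene with HDM. The counts lower were smaller with edgeR, at 3, 2 and 4 for ER folding 4, 8 and 2 for ERAD and 3, 4 and 0 for ATF6 processing, and DESeq2 gave 2, 3 and 3, then 4, 7 and 1, then 1, 2 and 0. The HDM and Grass calls of Mbtps2 ended with DESeq2, that of Sec61a1 with Cat ended with both tools, and that of Derl1 with Cat ended with DESeq2.

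On the ATF4 side the other genes were mixed. Amino acid transporters included the largest change of any pathway gene examined, in the cystine carrier Slc7a11, which is also an Nrf2 target (82.5 ± 3.3 with HDM, 82.9 ± 0.78 with Grass and 76.3 ± 1.7 with Cat, against 48.6 ± 0.15 in untreated cells, SD, n = 2 each). Slc1a4 rose with each extract (0.30, 0.18 and 0.16), while Slc3a2, a heavy chain partner of Slc7a11, fell with HDM (-0.10) and Grass (-0.17), the HDM call ending with edgeR and DESeq2 (adjusted p = 0.10 and 0.12). Of the 9 transporters, 3 rose and 2 fell with HDM, 3 and 3 with Grass, and 2 and 0 with Cat, while edgeR and DESeq2 called 4 higher and 0 lower with HDM. Among 16 tested other ATF4 targets 5 rose and 1 fell with HDM, 4 and 3 with Grass, and 1 and 2 with Cat: Jdp2 rose with each (0.30, 0.20 and 0.20), and Atf3, an immediate stress factor, fell with Grass (-0.13) and Cat (-0.22). EdgeR called 0, 1 and 2 of these targets lower with HDM, Grass and Cat and DESeq2 0, 0 and 2. The Grass call of Atf3 thus ended with DESeq2 (adjusted p = 0.11). Between extracts, limma called 4 of these targets higher and 0 lower with HDM than with Cat, and 2 and 1 with Grass than with Cat. Of the transporters, 2 were higher and 3 lower with Grass than with Cat. The other 11 cytosolic synthetases had 0 higher and 4 lower with HDM, 0 and 5 with Grass and 0 and 0 with Cat, for example Farsb (-0.13, -0.15 and -0.079). Limma, edgeR and DESeq2 gave 0 higher in each, 4 were lower at an unadjusted p under 0.05 with Cat, and edgeR called 1, 3 and 0 lower and DESeq2 0, 3 and 0. The 17 mitochondrial synthetases, which charge tRNA in the mitochondrion, had 3 higher and 0 lower with HDM, 2 and 1 with Grass, and 2 and 0 with Cat, led by Pars2 (0.29, 0.28 and 0.25). DESeq2 called 0 of them higher with Cat (Pars2, adjusted p = 0.13), and edgeR and DESeq2 called 0 lower with Grass. Of 12 subunits, kinases and phosphatases of eIF2, HDM lowered 5, Grass 5 and Cat 4, and 0 rose by limma (0 at an unadjusted p under 0.05), edgeR or DESeq2. EdgeR called 3, 4 and 2 of them lower and DESeq2 3, 5 and 2. They included the phosphatase subunit Ppp1r15b (-0.21, -0.21 and -0.15). Of 6 known targets of IRE1-dependent RNA decay only 2 passed the filter. Hgsnat fell with HDM (-0.19) and Cat (-0.26), the HDM call ending with DESeq2 (adjusted p = 0.20), and was not called with Grass. The other tested target was not called with any extract (-0.045 with HDM and -0.092 with Cat).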

How the data were processed

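RNA was sequenced from 8 libraries of DC2.4 cells, grouped by the treatment in the sample labels. The deposited values for all genes are called raw counts by their title but are scaled (unit: signal): dividing a library's values by its smallest step gives whole reads, within 1e-06 for 100% of values, so the authors had scaled each library's counts by 1 factor. Per the submitters' processing notes Bowtie2 2.1.0, RSEM 1.2.15, edgeR and the mm9 build were used, with no role or order given. The annotation and the strand setting are not given in the sources used here, and per the labels' protocols the kit was stranded. The authors' deposited tables of changed genes hold a signed fold (unit: score), used here only to look up the members.

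From the deposited values, log2(value + 0.1) was fitted with limma 3.58.1 (R 4.3.3, trend and robust settings) in 1 model over the 4 groups with 4 residual degrees of freedom. Rows needed a value of 0.5 in at least 2 libraries, which left 11455 of 24054 rows (16242 had a read). Another 27 rows carry dates in place of gene symbols and were not named. A fold change on this scale understates the change of low genes. A call is a Benjamini-Hochberg adjusted p under 0.05. Count tests on the recovered reads called 1491 rows higher and 1607 lower with HDM, 1712 and 1913 with Grass and 756 and 1035 with Cat (edgeR 4.0.16, quasi-likelihood), and DESeq2 1.42.0 was run too. The fit was tested on simulated reads with known folds, which were larger than most changes given here. These reads had no shift in scaling between groups, so the simulation does not cover small changes or effects of scaling. Alternatives were other pseudocounts, filters, scalings and tests, a replicate block, and leaving out each library in turn.

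The members and lists were chosen with earlier results of these data known, and the lists were made by function. Of the members, 11 fixed by name and the 5 called members with the largest change in each comparison with untreated cells among those with a mean of at least 1, are given in every library. From each further list, up to 3 called genes with the smallest p could be named. Promoter windows were matched by symbol to RefSeq (GRCm38.p6), and overlapping exons were looked up in GENCODE M21. No coordinates were moved between builds.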

Additional observations from a re-analysis of the deposited data

Results flagged for a closer look

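The direct contrast between extracts differed from 0 (limma, Benjamini-Hochberg adjusted p under 0.05) for the members below, which is to say that their change against the shared untreated libraries differed between the extracts. Values are log2 differences. For HDM minus Cat, Nupr1 (0.32), Trib3 (0.24), Ppp1r15a (0.23) and Cebpg (0.12) were higher with HDM. Edem1 (-0.22), Creld2 (-0.18), Manf (-0.14), Sdf2l1 (-0.13), Hyou1 (-0.11) and Atf6 (-0.10) were lower with HDM. For Grass minus Cat, Nupr1 (0.27) and Trib3 (0.15) were higher with Grass. Edem1 (-0.27), Atf6 (-0.18), Creld2 (-0.15), Hyou1 (-0.14), Manf (-0.12) and Dnajb11 (-0.12) were lower with Grass.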

How the results depend on the processing

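Limits apply to small changes: with 2 libraries a group the members' SE was about 0.03 on the log2 scale for abundant genes, and the spread between replicates exceeded counting error in each pair. Where a count or median below moved, the cause was not tested. With HDM against untreated cells, 7 members higher became 13 with upper-quartile factors, and 16 lower became 10 with TMM factors, DESeq2 factors, edgeR or DESeq2 and 9 with upper-quartile factors. With Grass, 4 higher became 8 with TMM factors, DESeq2 factors or edgeR and 9 with upper-quartile factors. With Grass, 19 lower became 12 with TMM factors, DESeq2 factors or DESeq2, 11 with edgeR or limma without trend and robust settings, and 9 with upper-quartile factors. With Cat, 4 higher became 8 with upper-quartile factors and 7 with edgeR. With Cat, 9 lower became 5 with TMM factors, DESeq2 factors, DESeq2 or only the libraries compared, 4 with edgeR, 2 with upper-quartile factors and 1 without trend and robust settings. Fitting only the libraries compared gave 4 higher for HDM against Grass, 4 higher and 10 lower for Grass against Cat. Without trend and robust settings HDM against Cat had 1 higher and 0 lower, and Grass against Cat 1 and 1. Upper-quartile factors gave 3 lower for HDM against Cat and 3 for Grass against Cat, and DESeq2 gave 3 for HDM against Cat. The ATF4-side median under TMM factors, DESeq2 factors, upper-quartile factors, edgeR and DESeq2 was 0.038, 0.038, 0.074, 0.041 and 0.036 with HDM, and 0.013, 0.011, 0.051, 0.013 and 0.009 with Grass. With Cat it was 0.052, 0.052, 0.072, 0.056 and 0.052. In the same order the ER-side median was -0.084, -0.085, -0.048, -0.081 and -0.085 with HDM, -0.077, -0.078, -0.039, -0.076 and -0.079 with Grass, and -0.044, -0.044, -0.024, -0.040 and -0.043 with Cat. Leaving out each library in turn gave 6 to 7 higher and 10 to 21 lower with HDM, 4 to 6 and 14 to 25 with Grass, and 3 to 6 and 4 to 12 with Cat. Between extracts the ranges were 0 to 4 and 0 to 0 for HDM against Grass, 2 to 5 and 1 to 7 for HDM against Cat, and 1 to 4 and 2 to 12 for Grass against Cat. The ATF4-side medians ranged between -0.012 and 0.035 with HDM, -0.058 and -0.014 with Grass, and -0.019 and 0.039 with Cat. The ER-side medians ranged between -0.132 and -0.110 with HDM, -0.145 and -0.118 with Grass, and -0.089 and -0.068 with Cat, and the ER minus ATF4 difference between -0.167 and -0.104, -0.120 and -0.086, and -0.113 and -0.053. That difference was added after the data were seen. The next counts cover only the members given in every library, not all 45. Among their values under the alternatives, 1687 kept their side of the threshold, 64 lost a call and 48 gained one. In addition, 1 called value changed sign, Asns with Grass at 0.001 under upper-quartile factors. Of 1012 values of these same genes not called in either setting, 67 had the other sign. Libraries with the same replicate number did not deviate together (correlations -0.080 to 0.128, 1 of 6 over 0.1), so the numbers do not pair them. With the replicate block the counts higher and lower were 7 and 16 with HDM, 4 and 19 with Grass, and 4 and 10 with Cat.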
